A study of Homo sapiens with 36 samples.

Results

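A2780 cis SSP cells were compared with A2780 cis cells, both cultured in complete medium without carboplatin. A2780 is a human ovarian cancer cell line, and cis is its cisplatin-resistant analogue, derived by chronic exposure of the parental cells to cisplatin. The cis SSP cells grew out of cis cells after a prolonged culture without serine and glycine and are labelled as having regained activity of the serine synthesis pathway (SSP), so both groups carry the history of cisplatin exposure and only cis SSP also carries that of serine and glycine deprivation. Whether the sequenced cis SSP cells represent 1 outgrowth or several, and whether they are clonal, is not given in the sources used here. Polyadenylated RNA was sequenced from 3 libraries per group, chosen by their labels, which is 6 of the 36 libraries of the series. The study describes the 3 libraries of a condition as technical replicates, so the p-values below measure the spread between libraries and not between independent cultures. A further 6 libraries of the same lines, cis and cis SSP under carboplatin, a platinum drug that crosslinks DNA, served to set a difference seen in complete medium beside one measured in other libraries.

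Serine can be taken up from the medium or made from the glycolytic intermediate 3-phosphoglycerate in a pathway of consecutive steps catalyzed by PHGDH, PSAT1 and PSPH. The first of these enzymes, PHGDH, reduces NAD+ to NADH. Serine hydroxymethyltransferases convert serine into glycine and pass its carbon to folate, which feeds nucleotide synthesis, while cells short of amino acids activate the transcription factor ATF4, which drives genes of serine synthesis, amino acid transport and tRNA charging.

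Counts assigned to genes ranged from 14455766 to 18768404 per library. The cis SSP replicate 1 stood apart from the other libraries. Relative to the cis mean, its median log2 difference was 0.96 over 139 genes with 0.5 to 1 kb of exonic sequence, 0.4 over 2592 genes of 2 to 4 kb and -0.49 over 2965 genes longer than 8 kb, whereas cis SSP replicates 2 and 3 stayed between -0.07 and 0.14 in every length class. Genes of the mitochondrial genome took 6.02% of its counts and ribosomal protein genes 7.87%, above the other 5 libraries, at 2.97% to 4.82% and 4.16% to 4.41%. In the cis SSP libraries under carboplatin the mitochondrial share was 5.42% to 6.99%, and the ribosomal share 4.4% to 4.54%. Beyond leaving it out, fits with the length trend removed and with quality weights are given in the last section. Its part in the differences between the lines was not tested further. Counts over gene groups are given with and without it.

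**Figure D1:**
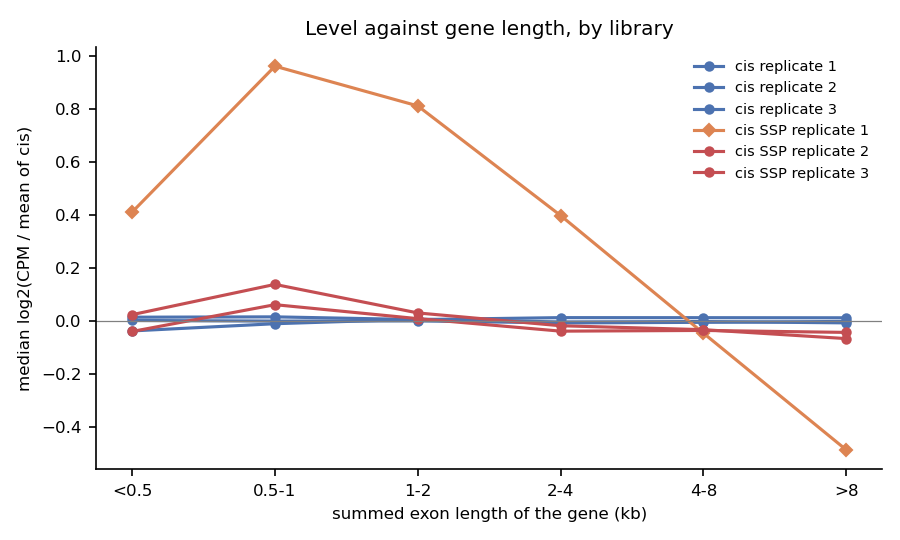
Median log2 difference of each cis and cis SSP library from the mean of the cis libraries (vertical axis), by the exonic length of the genes (horizontal axis, in kb). The cis SSP replicate 1 descends from 0.96 at 0.5 to 1 kb to -0.49 above 8 kb, while cis SSP replicates 2 and 3 lie between -0.07 and 0.14.

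With all 6 libraries, 3990 of 13714 genes tested were called at an adjusted p of 0.05 by edgeR's quasi-likelihood test, which is 29.1%. Of these, 2170 were higher in cis SSP (15.8% of the genes tested) and 1820 were lower (13.3%). Without cis SSP replicate 1 the common dispersion fell from 0.0333 to 0.000991, and 9262 of 14154 genes were called (65.4%), 4659 higher (32.9%) and 4603 lower (32.5%). Of the 3990 genes called with all libraries, 3986 were called in the same direction without replicate 1. A further 5087 genes were called only without it, and 556 of the genes called without it had the opposite sign with all 6. Among genes called both with and without replicate 1, the log2 fold change with 6 libraries was at least 1 for 1089 and 2 for 331 of those higher in cis SSP, and at least 1 for 708 and 2 for 277 of those lower. In what follows, rose, fell, higher and lower are used for calls with all 6 libraries unless stated, values are CPM, the counts of a gene scaled to a common library size, fold changes are log2 of cis SSP over cis, a gene that rose by a number did so on that log2 scale, and adjusted p-values are those of edgeR's quasi-likelihood test after Benjamini-Hochberg correction. The calls were made with few libraries: of 194 called genes named by the rule, 57, 56 and 59 lost the call when cis replicate 1, 2 or 3 was left out, and the number of calls over all genes became 2064, 1995 and 2048.

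Of the genes of serine synthesis and uptake, PHGDH rose, its 2 partner enzymes did not pass the test, and the neutral amino acid transporters fell. PHGDH (ENSG00000092621; chromosome 1, 120191034 to 120286841 on GRCh37) was at 149, 148 and 156 CPM in the cis libraries and at 406, 271 and 280 CPM in the cis SSP libraries, so that the groups did not overlap and replicate 1 was the highest. The log2 fold change was 1.06 (SE 0.159, edgeR adjusted p = 0.00462) with all libraries and 0.88 without replicate 1. In the parental wt cells its mean was 471 CPM. PSAT1, the aminotransferase of the second step, was at 718, 719 and 734 CPM in cis and 662, 655 and 653 CPM in cis SSP. Its log2 fold change of -0.16 did not pass the test (edgeR adjusted p = 0.242), although without replicate 1 the -0.13 that remained was called lower. PSPH, the phosphatase of the last step, was at 80.8, 82.9 and 83.5 CPM against 87.7, 69.4 and 69.7 CPM, with overlapping groups, and was called lower only without replicate 1 (log2 fold change -0.23).

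The 2 transporters of serine and other small neutral amino acids were lower in cis SSP. SLC1A4 was at 93.7, 91.7 and 92.1 CPM in cis and 48, 58.8 and 59.9 CPM in cis SSP, a log2 fold change of -0.75 (SE 0.13, edgeR adjusted p = 0.00752). SLC1A5, which also carries glutamine, went from 443, 433 and 443 CPM to 358, 314 and 312 CPM, a log2 fold change of -0.44 that lost its call when any library other than cis SSP replicate 1 was left out. SFXN3, a mitochondrial serine carrier, also fell (log2 fold change -0.59). On the side of serine use, SDSL, a serine dehydratase-like protein, rose from 6.52, 5.67 and 4.95 CPM to 29.2, 13.2 and 16.1 CPM, and SRR, the serine racemase, rose with a log2 fold change of 0.45. In all, 3 of the 14 tested genes of this group rose, 3 fell and 8 did not pass the test, with a median log2 fold change of -0.15 against 0.01 over all genes. That is 21.4% in each direction, against 15.8% and 13.3% over all genes, and without replicate 1 the counts were 5 higher and 7 lower, against 32.9% and 32.5% over all genes.

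**Figure D2:**
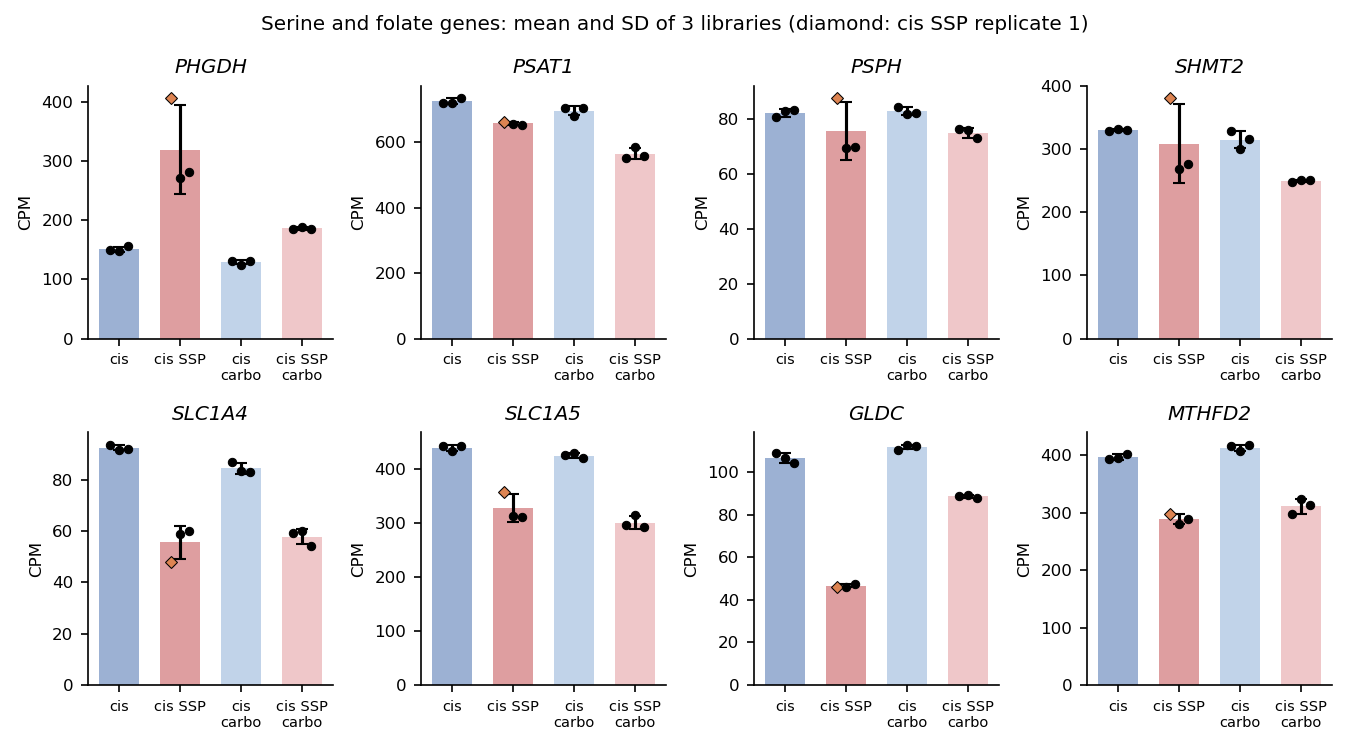
CPM (vertical axis) of 8 serine and folate genes, 1 panel per gene, in cis and cis SSP in complete medium and under carboplatin (carbo). Points are libraries (a diamond for cis SSP replicate 1), bars are means of 3 libraries and error bars their SD. In complete medium PHGDH is at 148 to 156 CPM in cis and 271 to 406 CPM in cis SSP, while PSAT1 and PSPH lie close together in both groups.

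Among folate one-carbon enzymes, some rose and some fell. GLDC, the glycine decarboxylase of the glycine cleavage system, fell from 109, 107 and 104 CPM to 46.1, 46.2 and 47.5 CPM, a log2 fold change of -1.21. GGH, which trims folate polyglutamates, and SLC25A32, the mitochondrial folate carrier, fell with log2 fold changes of -1.09 and -0.86. Both lie on chromosome 8, in stretches of 10 Mb whose genes had median log2 fold changes of -0.95 and -0.80. The part of position in their falls was not tested. AMT, the aminomethyltransferase of the same cleavage system as GLDC, rose from 2.67, 3.42 and 3.0 CPM to 11, 6.39 and 6.12 CPM. DHFR2, a mitochondrial dihydrofolate reductase, rose by 1.37 on the log2 scale and MTHFD2L, a mitochondrial methylene-tetrahydrofolate dehydrogenase, by 1.02. MTHFD2, which oxidizes folate in mitochondria and was chosen after its values were seen, fell from 393, 394 and 403 CPM to 298, 280 and 289 CPM. SHMT2, the mitochondrial hydroxymethyltransferase, was at 330, 332 and 330 CPM against 381, 269 and 277 CPM and did not pass the test (edgeR adjusted p = 0.544), although it was called lower without replicate 1 (log2 fold change -0.26). Of 21 tested members, 4 rose (19%), 6 fell (28.6%) and 11 did not pass the test, against 15.8% and 13.3% of all genes, with a median of -0.13. Without replicate 1, 8 were called higher and 11 lower, against 32.9% and 32.5%.

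PHGDH lay in a stretch of chromosome 1 whose genes were higher in cis SSP together. From EEIG2 to NOTCH2 (chromosome 1, 109102711 to 120643366), bounds that were set after the values had been seen, 71 genes averaged at least 50 counts. Of these, 67 had a positive fold change and 49 were called higher, where 15.8% of all genes were called higher. Their median log2 fold change was 0.85, which is 1.81-fold. Without replicate 1, 69 were positive and 65 were called higher, where the share over all genes was 32.9%, and the median was 0.91. PHGDH did not stand out among its neighbours: of 51 genes within 10 Mb, 29 had a larger log2 fold change than PHGDH without replicate 1, and its rank with all libraries was 15. EEIG2, at the edge, rose from 4.37, 4.49 and 4.39 CPM to 8.8, 14.6 and 13.6 CPM, and SLC25A24, the next gene outward, a mitochondrial carrier of ATP and magnesium, fell from 7.69, 8.61 and 9.29 CPM to 0.147, 0.483 and 0.656 CPM. Without replicate 1, the median log2 fold change was 0.92 over 48 genes in the 10 Mb before PHGDH, 0.61 over 38 genes at 10 to 20 Mb before it and -0.20 over 50 genes at 20 to 40 Mb before it. It was -0.00251 over 144 genes at 10 to 40 Mb after it, on the other side of the centromere. The number of copies of this stretch was not measured.

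**Figure D3:**
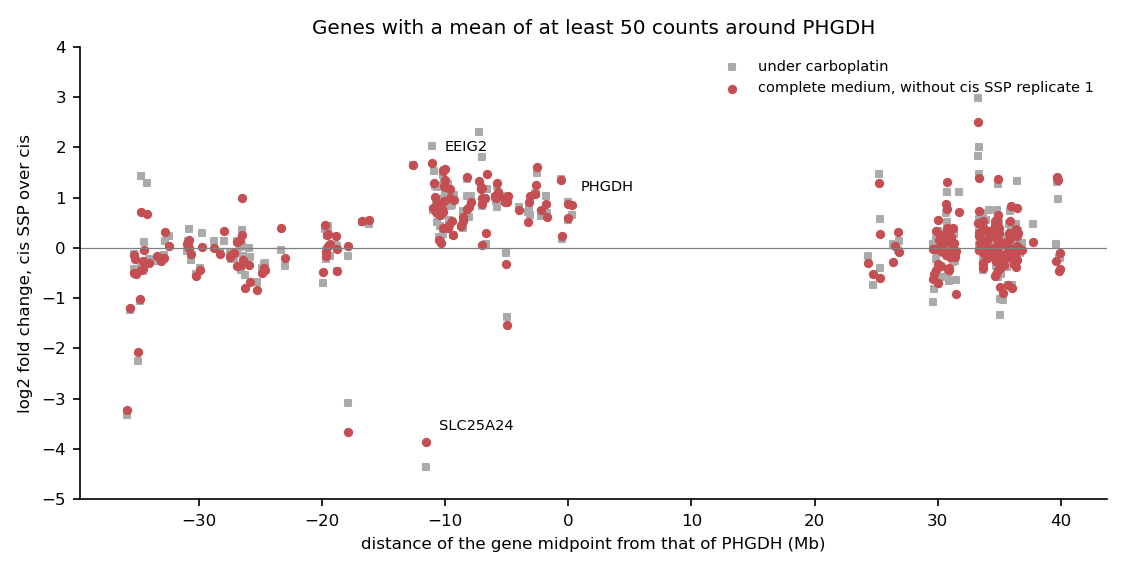
Log2 fold change of cis SSP over cis without replicate 1 (vertical axis) for 282 genes on chromosome 1, by distance from PHGDH in Mb (horizontal axis), each red point being 1 gene, with its value under carboplatin in grey. The red points within 10 Mb before PHGDH center on 0.92, those at 10 to 40 Mb after it on zero.

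The genome was then divided into windows of 10 Mb holding at least 15 genes with a mean of 50 counts or more. Over 251 such windows, the interquartile range of the medians without replicate 1 was -0.115 to 0.0321. In 11 windows the median was at least 0.5 in absolute value with all libraries, without replicate 1 and under carboplatin. Because the windows were chosen by these medians, a majority of genes with the same sign in each was fixed by the choice. On chromosome 1 this was the window from 110 to 120 Mb, where 52 of 55 genes were positive. At the start of chromosome 2, all 19 genes were positive, with a median of 1.04, among them YWHAQ, a 14-3-3 protein, which rose from 172, 173 and 176 CPM to 397, 343 and 344 CPM. EIPR1, in the same window, rose by 1.3. At the start of chromosome 20, 49 of 54 genes were negative, with a median of -0.58. They included TMX4, a thioredoxin-related membrane protein, which fell from 114, 108 and 115 CPM to 39.4, 49 and 46.4 CPM, and NOP56, a box C/D ribonucleoprotein, with a log2 fold change of -0.73. A window on chromosome 6, from 130 to 140 Mb, had 20 of 22 genes negative and a median of -0.53. The other 7 of the 11 windows lay on chromosome 8, and in these 7 windows 139 of 156 genes were negative. Over all 379 genes of chromosome 8 with that mean, the median was -0.40. Some genes named by list above or below lie in these 11 windows. Among them are GGH, SLC25A32, SQLE, RRM2B, CCNE2, CDC25B, BMP2, RPS7, SLC16A1, ATP5PB and FZD6. The part of position in their differences was not tested.

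Some genes were expressed in 1 line and nearly silent in the other. TNFRSF19, a receptor of the tumor necrosis factor receptor family, was at 552, 553 and 557 CPM in cis and at 0.0734, 0.422 and 0.164 CPM in cis SSP. DKK1, a secreted Wnt inhibitor, was at 455, 438 and 471 CPM in cis and at 0.880, 0.483 and 0.656 CPM in cis SSP. COL12A1, a fibril-associated collagen, was at 1308, 1348 and 1284 CPM against 1.61, 7.06 and 5.96 CPM. All 3 thus dropped from among the more abundant transcripts of cis to a few CPM at most. Among the others with the largest fall were FILIP1, which interacts with filamin, SLC4A4, a sodium bicarbonate cotransporter, PTGER3, a prostaglandin E2 receptor, KHDRBS3, an RNA-binding protein, TCF4, a basic helix-loop-helix factor, WLS, the carrier of Wnt ligands to the cell surface, and LRRC4C, a synaptic adhesion protein, with log2 fold changes from -8.76 to -6.49.

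In the opposite direction, BARX2, a homeobox transcription factor, was at 0.782, 1.23 and 1.11 CPM in cis and at 456, 383 and 370 CPM in cis SSP. GPR158, a G protein-coupled receptor that binds glycine, rose from 1.5, 1.28 and 1.56 CPM to 192, 362 and 347 CPM. DHRS2, a short-chain dehydrogenase, rose from 0.196, 0.428 and 0.278 CPM to 71.5, 52.1 and 58.6 CPM. The highest of these levels came from the identifier ENSG00000104725, to which the annotation used here gave no symbol, at 1.04, 1.12 and 0.946 CPM in cis and 780, 627 and 616 CPM in cis SSP. PSD3, ENKUR, OLFML1, COL4A1 and ADGRF4 completed the named rises, with log2 fold changes from 6.66 to 7.46. COL4A1 and COL4A2 together form the collagen IV network of basement membranes, and both rose, COL4A1 from 0.391, 0.855 and 0.445 CPM to 50.9, 91.9 and 84.3 CPM and COL4A2 from 1.17, 1.28 and 1.22 CPM to 83.4, 116 and 115 CPM.

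**Figure D4:**
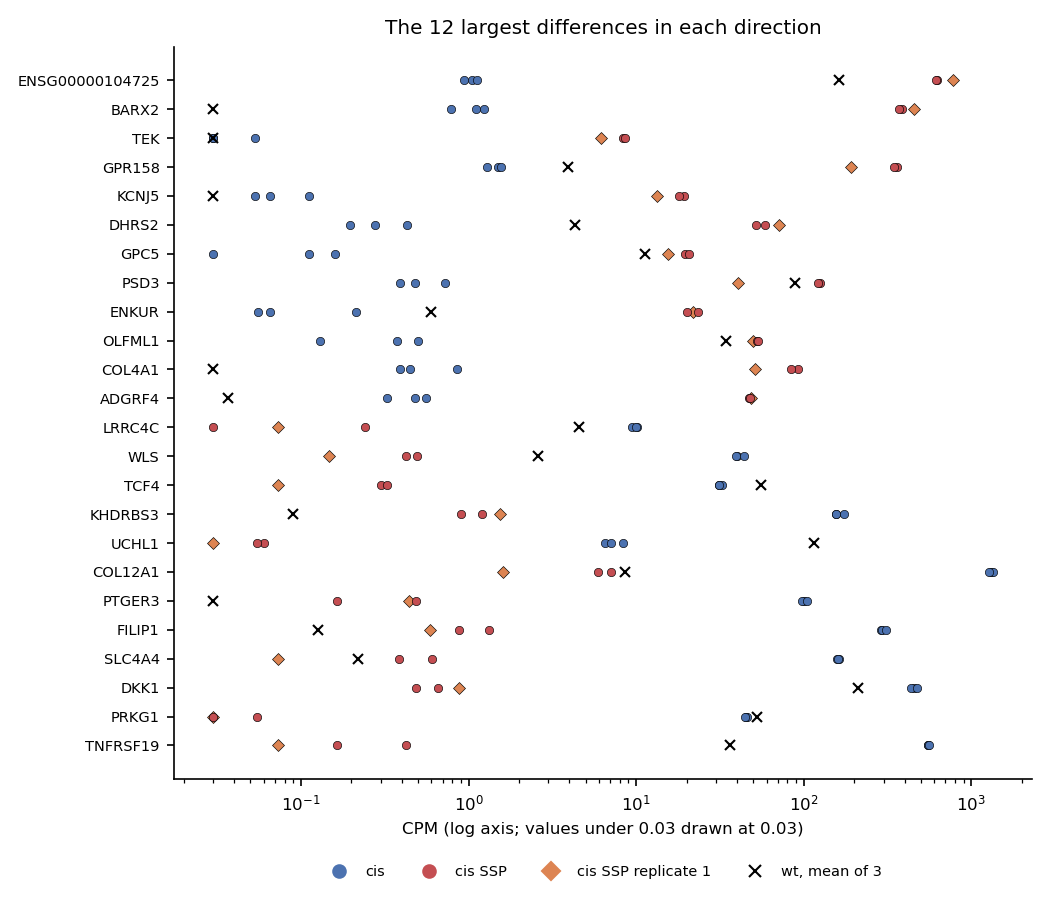
CPM in each library on a log axis for the genes with the largest rises and falls between cis (3 libraries) and cis SSP (3 libraries, a diamond for replicate 1), with a cross at the wt mean and values below 0.03 CPM drawn at 0.03. No gene shown has overlapping groups, as the rule that chose them required, and TNFRSF19 spans 552 to 557 CPM in cis against 0.0734 to 0.422 CPM in cis SSP.

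With at most 3 counts in every cis library and a mean of 50 or more in cis SSP, 18 genes were off in cis. GPC5, a heparan sulfate proteoglycan, had 5 counts over the cis libraries and 211, 323 and 379 counts in cis SSP, a ratio of 196 (exact 95% interval 83.6 to 605, for counting error only). KCNJ5, an inwardly rectifying potassium channel, had 4 counts over the cis libraries against 182, 318 and 329 in cis SSP, a ratio of 222 (86.5 to 818). TEK, the angiopoietin receptor TIE2, had 1 count in cis and 84, 138 and 157 in cis SSP, a ratio of 406 (72.5 to 16100). Others off in cis were LINC00470, ATRNL1, OLFML3 and RGS7BP. Conversely, 16 genes were off in cis SSP. PRKG1, a cyclic GMP-dependent protein kinase, had 1 count over the cis SSP libraries and 693, 856 and 802 counts in cis, a ratio of 2190 (393 to 86600). UCHL1, a neuronal ubiquitin hydrolase, had 2 counts in cis SSP and 100, 133 and 150 in cis, a ratio of 179 (49.1 to 1480). IGFBP7, a secreted binding protein of insulin-like growth factors, had no count in any cis SSP library and 70, 70 and 102 counts in cis, and was at least 24.7-fold lower against a floor of 3 counts per library. INA, ADGRL3, MAP7D2, MBNL2 and SLITRK3 were also off in cis SSP. Under carboplatin the 2 lines did not overlap in any of these 18 and 16 genes either. There 69.2% of 13882 genes tested were called by edgeR. The share of all genes whose carboplatin libraries did not overlap was not counted, so that count has no background.

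Genes with large changes were often close to one another. A log2 fold change of at least 3 and a mean of at least 50 counts was reached by 155 genes, 75 higher and 80 lower. Another such gene lay within 1 Mb for 34.2% of them, against 9.17% of the 11167 genes of that abundance. Of 45 neighbouring pairs, some of which have overlapping exons, 38 went in the same direction. GPR158 and ENKUR were such a pair, as were BARX2 and KCNJ5. In 51 of the 75 genes that were higher in cis SSP and 53 of the 80 that were lower, the level in wt was nearer to that in cis than to that in cis SSP, on the scale of log2 (CPM + 0.5).

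Genes of the ATF4 stress response were lower on balance, with exceptions. ATF4 itself was at 415, 423 and 427 CPM in cis and 415, 248 and 268 CPM in cis SSP, which did not pass the test with all libraries (log2 fold change -0.47, edgeR adjusted p = 0.112) and was called lower without replicate 1 (-0.70). CTH, the cystathionine gamma-lyase that makes cysteine, fell from 40.1, 37.1 and 40.1 CPM to 4.84, 6.27 and 5.9 CPM, a log2 fold change of -2.79. ATF3 and DDIT3, transcription factors induced by stress, fell with log2 fold changes of -2.05 and -1.72. Of 33 tested members, 4 rose, 13 fell and 16 did not pass the test, with a median log2 fold change of -0.42, whereas 15.8% of all genes rose, 13.3% fell and their median was 0.01. Without replicate 1, 8 of 34 were called higher and 22 lower, against 32.9% and 32.5% of all genes. NUPR1, a stress-induced chromatin protein, rose in contrast, from 4.76, 4.54 and 5.89 CPM to 51.6, 26.8 and 26.5 CPM. PCK2, the mitochondrial phosphoenolpyruvate carboxykinase, and ATF5 rose by 0.68 and 0.55, and both lost the call when any cis library was left out. ASNS, the asparagine synthetase, was at 211, 210 and 222 CPM against 199, 142 and 150 CPM and did not pass the test (edgeR adjusted p = 0.06).

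The promoters of these genes, 250 bases before to 50 after the start in RefSeq on GRCh38.p14, were searched on both strands for TGATGNAA, the core of the composite element that binds ATF4. It was found in 7 of 26 members that had a promoter in the table (26.9%), against 4.46% of 27305 promoters. Matches not shown included members that did not pass the test, at log2 fold changes of 0.04 and -0.49. The matches of 3 members are shown because they span a large fall, a moderate one and one that missed the test. Capitals mark the element.
ATF3, chr1:212565205-212565234, plus strand: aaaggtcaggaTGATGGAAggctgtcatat
CEBPG, chr19:33374060-33374089, plus strand: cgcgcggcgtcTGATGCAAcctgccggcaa
ASNS, chr7:97872458-97872487, minus strand: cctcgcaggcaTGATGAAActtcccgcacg
CEBPG, a C/EBP family partner of ATF4 that was named by its match, fell from 130, 125 and 127 CPM to 85.6, 76.6 and 75.5 CPM. A match is a run of letters, and no binding was measured.

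Cytosolic aminoacyl-tRNA synthetases, which charge tRNAs with amino acids, were also lower. VARS1, for valine, fell from 183, 180 and 179 CPM to 79.6, 76.6 and 76.4 CPM, a log2 fold change of -1.24. CARS1, for cysteine, and GARS1, for glycine, each had a log2 fold change of -0.74. Of 20 tested, 12 fell, 1 rose and 7 did not pass the test, with a median of -0.42, where 13.3% of all genes fell and 15.8% rose. Without replicate 1 the counts were 17 lower and 3 higher, where the shares over all genes were 32.5% and 32.9%. QARS1, for glutamine, rose from 186, 195 and 197 CPM to 358, 271 and 277 CPM.

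Fewer chaperones of the endoplasmic reticulum passed the test, and those that did were lower. EDEM1, which directs misfolded glycoproteins to degradation, fell from 157, 162 and 158 CPM to 64.1, 82.1 and 83.7 CPM. DNAJB9, a cochaperone, and SEL1L, of the degradation complex, fell with log2 fold changes of -0.99 and -0.77. SEL1L lost the call when any cis library was left out. Of 22 tested members, 6 fell (27.3%, against 13.3% of all genes) and 0 rose with all libraries by edgeR, with a median of -0.37, and 0 were higher at an unadjusted p of 0.05 or by DESeq2. Without replicate 1 the same test called 20 lower, against 32.5% of all genes, and 0 higher, with 1 higher at an unadjusted p of 0.05 and 0 by DESeq2.

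Most of the tested genes of cholesterol synthesis fell. STARD4, a cytosolic sterol carrier, went from 268, 245 and 262 CPM to 25.4, 33.7 and 36.4 CPM, a log2 fold change of -3.03 (edgeR adjusted p = 0.000145). MSMO1, a methylsterol oxidase, fell from 153, 143 and 143 CPM to 37, 34.1 and 34.2 CPM. SQLE, the squalene epoxidase, fell from 265, 261 and 269 CPM to 94.8, 85.5 and 87.2 CPM. In each of the 3 genes the lowest cis library stood above the highest cis SSP library. Of 25 tested members, 17 fell, 2 rose and 6 did not pass the test, with a median of -0.71, where 13.3% of all genes fell. Without replicate 1 the counts were 21 lower and 2 higher, where 32.5% of all genes were lower. The exceptions were SREBF1, a transcription factor of lipid synthesis, which rose by 0.55, and PMVK, the phosphomevalonate kinase, at 34.5, 34.2 and 32.8 CPM against 101, 48.7 and 48.9 CPM.

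Sterol-responsive transcription runs through SREBP factors, which bind sterol regulatory elements. The core TCACNCCA was found in 3 of 19 members with a promoter in the same table (15.8%) and in 4.8% of all 27305 promoters, searched on both strands. All 3 matches are shown, with capitals on the core.
MSMO1, chr4:165327502-165327531, plus strand: tctcactatccTCACTCCAtccgcggagcc
SREBF2, chr22:41832961-41832990, plus strand: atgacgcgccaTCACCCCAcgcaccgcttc
MVK, chr12:109573588-109573617, plus strand: gttcgcagttcTCACCCCAgggcgggacac
SREBF2, which encodes the main SREBP of cholesterol synthesis, fell from 267, 273 and 285 CPM to 160, 204 and 201 CPM, whereas MVK, the mevalonate kinase, was at 18.9, 21.3 and 23.4 CPM against 28.8, 17.1 and 17.3 CPM and did not pass the test (edgeR adjusted p = 0.903). These 2 genes were named by their matches.

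**Figure D5:**
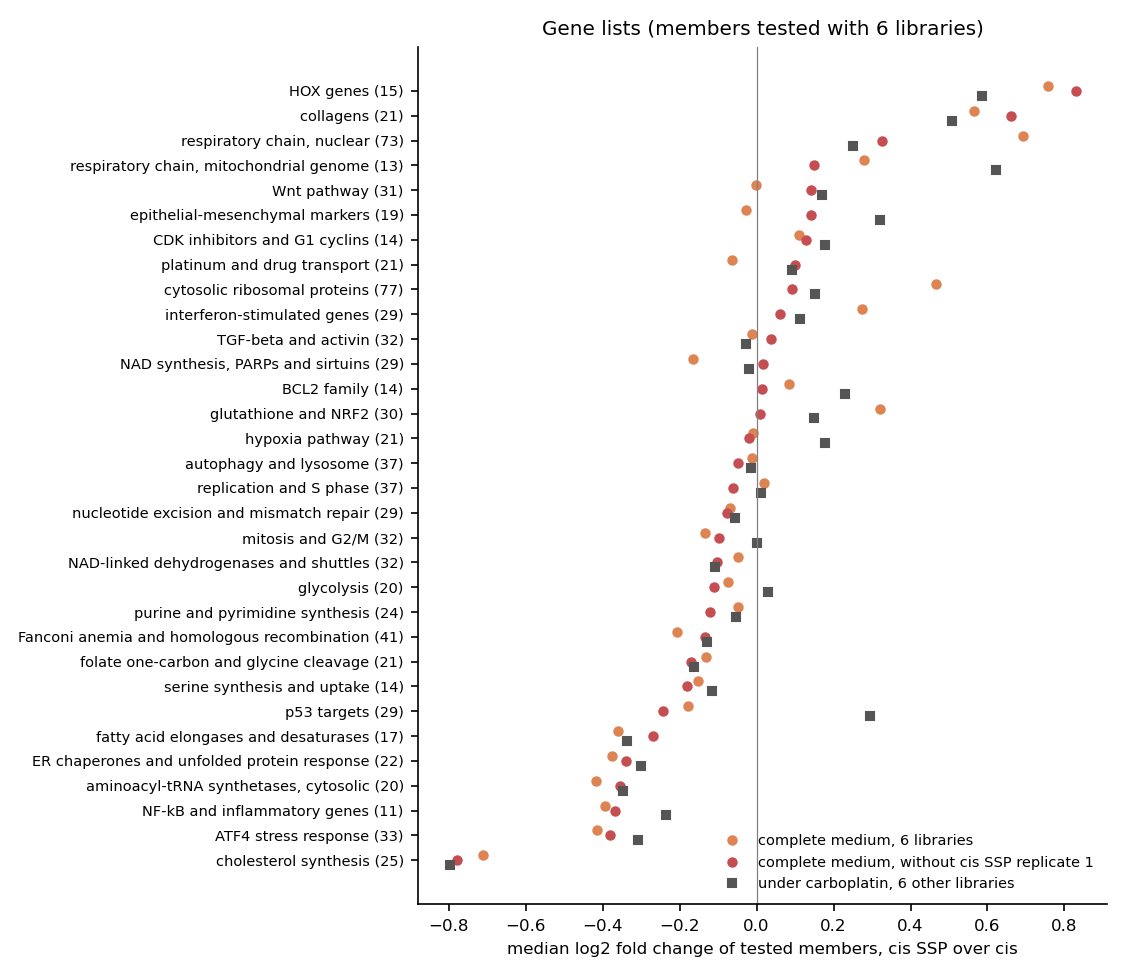
Median log2 fold change of cis SSP over cis (horizontal axis) of 32 gene groups with at least 10 members tested, with all 6 libraries, without cis SSP replicate 1 and under carboplatin. Cholesterol synthesis sits at -0.71, -0.78 and -0.80, while the nuclear respiratory chain moves from 0.69 to 0.33 when replicate 1 is left out.

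Among fatty acid elongases, desaturases and acyl-CoA synthetases, 1 of 17 tested rose and 5 fell, against 15.8% and 13.3% of all genes, with a median of -0.36, and without replicate 1 the counts were 2 higher and 12 lower, against 32.9% and 32.5%. ELOVL4, which elongates very long chain fatty acids, fell from 27.6, 23.5 and 25.8 CPM to 2.93, 2.59 and 3.17 CPM. ACSL4 and ACSL1, which activate fatty acids, fell with log2 fold changes of -1.15 and -0.76. FADS2, the delta-6 desaturase, rose from 22.2, 22.7 and 25 CPM to 39, 40.4 and 43.5 CPM.

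Genes of NAD metabolism were called at shares near those of all genes. PARP1, the main nuclear consumer of NAD+, was at 620, 628 and 640 CPM in cis and 627, 659 and 650 CPM in cis SSP, with overlapping groups and a log2 fold change of 0.02 (edgeR adjusted p = 0.898). Without replicate 1 it was called higher, with a log2 fold change of 0.07 (edgeR adjusted p = 0.031). NMNAT2, a cytosolic NAD+ synthase of neurons, was off in cis SSP, with 4 counts over its libraries against 61, 65 and 75 counts in cis, a ratio of 46.9 (exact 95% interval 18 to 174). NAPRT, which makes NAD+ from nicotinic acid, fell from 7.04, 8.07 and 8.73 CPM to 4.99, 3.26 and 3.44 CPM. NMNAT1, the nuclear NAD+ synthase, rose from 9.65, 7.43 and 8.12 CPM to 16.9, 15.1 and 13.9 CPM. SIRT2, an NAD+-dependent deacetylase, rose by 1.19, PARP3 by 0.81, and NNT, the transhydrogenase between NADH and NADP+, fell with a log2 fold change of -0.89. Of 29 tested, 5 rose and 5 fell, 17.2% in each direction against 15.8% and 13.3% of all genes, and 19 did not pass the test. Without replicate 1, 11 were called in each direction, 37.9% against 32.9% and 32.5%.

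The NAD-linked dehydrogenases and shuttles included 3 rises and 8 falls among 32 tested, against 15.8% and 13.3% of all genes, with a median of -0.05, and 7 higher and 17 lower without replicate 1, against 32.9% and 32.5%. GPD2, the mitochondrial enzyme of the glycerol phosphate shuttle, fell from 29, 27.3 and 30.5 CPM to 0.807, 1.27 and 1.31 CPM, a log2 fold change of -4.66, and its mean in wt was 129 CPM. GPD1, the cytosolic part, was low in both groups, at 1.0 to 1.34 CPM in cis and 0.543 to 0.710 CPM in cis SSP. ALDH1A1, a retinaldehyde dehydrogenase, fell from 22, 20.4 and 22.2 CPM to 6.67, 4.89 and 4.59 CPM. ALDH7A1, which also oxidizes aldehydes, rose from 78.2, 78.3 and 80.9 CPM to 213, 174 and 181 CPM, and PC, the pyruvate carboxylase, rose by 1.01. In glycolysis, 2 of 20 tested genes rose (10.0%) and 7 fell (35%), against 15.8% and 13.3% of all genes. Without replicate 1 the counts were 3 and 11 of 21 (14.3% and 52.4%), against 32.9% and 32.5%. SLC2A3, a glucose transporter, fell from 113, 117 and 116 CPM to 42.7, 44.9 and 42.7 CPM, and ALDOC, an aldolase, with a log2 fold change of -0.79. SLC16A1, the lactate transporter MCT1, which lies in the stretch near PHGDH, rose from 157, 153 and 154 CPM to 283, 309 and 301 CPM. Of 21 genes of the hypoxia pathway, 1 rose and 2 fell (4.76% and 9.52%), against 15.8% and 13.3% of all genes. Without replicate 1 it was 6 in each direction (28.6%), against 32.9% and 32.5%. The calls with all libraries included VEGFA, a vascular growth factor, which fell with a log2 fold change of -0.65, and BNIP3L, a mitophagy receptor, which rose by 0.71.

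Of 21 tested transporters linked to platinum and other drugs, 4 rose and 4 fell, 19% in each direction and near the 15.8% and 13.3% of all genes. Without replicate 1, 7 were called in each direction, 33.3% against 32.9% and 32.5%. ABCC2, an efflux pump of glutathione conjugates, rose from 0.847, 0.748 and 0.834 CPM to 11.4, 17.1 and 15.9 CPM. ABCA1, a cholesterol exporter, rose from 3.71, 4.17 and 3.89 CPM to 9.9, 35.5 and 33.9 CPM, and was lowest in the cis SSP replicate 1. MVP, the major vault protein, rose by 1.28. SLC31A1, the copper transporter that also admits cisplatin, fell from 138, 147 and 150 CPM to 64.4, 98 and 95.5 CPM. ABCG2, a drug efflux pump, fell from 3.13, 3.96 and 3.17 CPM to 1.69, 1.15 and 1.42 CPM.

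In the group of glutathione and NRF2 genes, 10 of 30 tested rose and 3 fell with all libraries, against 15.8% and 13.3% of all genes and with a median of 0.32. Without replicate 1 the counts were 14 and 12, against 32.9% and 32.5%, and the median was 0.01. AKR1C3, an aldo-keto reductase, rose by 1.98, and the glutathione transferases GSTM2 and GSTM4, which lie in the stretch near PHGDH, by 1.68 and 1.49. GSTM4 was at 10.3, 11 and 10.1 CPM in cis and 37, 24.2 and 29 CPM in cis SSP. MGST1, a microsomal glutathione transferase, fell from 12.1, 13.9 and 13.4 CPM to 2.64, 2.11 and 1.64 CPM, and GCLM, the modifier subunit of glutathione synthesis, fell with a log2 fold change of -0.74. Of 4 tested metallothioneins, which bind metals, 2 rose (50%) and 0 fell by edgeR, against 15.8% and 13.3% of all genes. DESeq2 called 1 lower. MT2A rose from 5.41, 5.72 and 4.84 CPM to 40.8, 14.9 and 15.8 CPM and MT1X by 1.19. Without replicate 1 the counts were 2 higher and 1 lower (50% and 25%), against 32.9% and 32.5%.

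DNA repair genes seldom passed the test with all libraries. Of 41 genes of the Fanconi anemia pathway and homologous recombination, 2 rose and 2 fell, against 15.8% and 13.3% of all genes, and the median was -0.21. Without replicate 1, 12 were called higher and 21 lower, against 32.9% and 32.5%. RBBP8, the end resection factor CtIP, fell from 118, 116 and 126 CPM to 68.6, 78.2 and 78.4 CPM, and BLM, a helicase, with a log2 fold change of -0.43. FANCF, of the core complex, and EME1, a nuclease partner, rose by 0.59 and 0.39. Of 29 genes of nucleotide excision and mismatch repair, 2 rose and 4 fell (6.9% and 13.8%), against 15.8% and 13.3% of all genes. Without replicate 1 the counts were 7 and 11 (24.1% and 37.9%), against 32.9% and 32.5%. MLH3, a mismatch repair protein, fell from 34.4, 32.9 and 37.8 CPM to 14.2, 21.9 and 21.2 CPM, ERCC2, a helicase of TFIIH, fell with a log2 fold change of -0.46, and LIG1, the replicative ligase, rose by 0.66.

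Of 29 tested p53 targets, 3 rose and 7 fell, against 15.8% and 13.3% of all genes, with a median of -0.18. Without replicate 1, 9 were called higher and 15 lower, against 32.9% and 32.5%. FAS, a death receptor, fell from 29.1, 28 and 29.6 CPM to 14.6, 13.6 and 14.2 CPM. RRM2B, a p53-inducible ribonucleotide reductase subunit, and EDA2R, a receptor, fell with log2 fold changes of -1.08 and -0.93. RRM2B lost the call when any cis library was left out. CD82, a tetraspanin, rose from 2.09, 1.07 and 1.45 CPM to 9.32, 9.23 and 7.21 CPM, TP53I3, a quinone oxidoreductase, by 0.96 and TRIAP1 by 0.8. Inhibitors of cyclin-dependent kinases parted: CDKN2A, which encodes p16, rose from 1.56, 2.35 and 1.61 CPM to 39.8, 19.1 and 18 CPM, whereas CDKN2C, which encodes p18, fell from 13.3, 12.4 and 13.1 CPM to 2.35, 1.75 and 1.09 CPM. CDKN1C, which encodes p57, rose by 2.15 and CDKN2B by 2.45. CDKN1A, which encodes p21, fell from 90.2, 91.7 and 91.5 CPM to 67.3, 57.1 and 55 CPM. Of 14 tested inhibitors and G1 cyclins, 4 rose and 2 fell (28.6% and 14.3%), against 15.8% and 13.3% of all genes. Without replicate 1 the counts were 8 and 2 (57.1% and 14.3%), against 32.9% and 32.5%.

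How many genes of the cell cycle passed the test depended on replicate 1. Of 32 tested genes of mitosis and G2/M, 1 rose and 4 fell with all libraries, against 15.8% and 13.3% of all genes, and 8 were called higher and 16 lower without replicate 1, against 32.9% and 32.5%. CDK1, the mitotic kinase, rose from 164, 156 and 162 CPM to 330, 231 and 232 CPM, and CDC25B, the phosphatase that activates it, fell from 201, 213 and 210 CPM to 134, 117 and 121 CPM. Of 37 genes of replication and S phase, 3 rose and 3 fell (8.11% each), against 15.8% and 13.3% of all genes, with a median of 0.02. Without replicate 1 the counts were 8 and 14 (21.6% and 37.8%), against 32.9% and 32.5%. CCNE2, cyclin E2, was at 19.9, 20.7 and 20.9 CPM against 9.24, 14.2 and 13.6 CPM. POLD1, a replicative polymerase, rose by 0.43 and lost the call when any cis library was left out. Of 24 genes of purine and pyrimidine synthesis, 4 rose and 4 fell (16.7% each), near the 15.8% and 13.3% of all genes. Without replicate 1 the counts were 7 and 11 (29.2% and 45.8%), against 32.9% and 32.5%. The genes called with all libraries included CDA, the cytidine deaminase, from 0.0652, 0.267 and 0.278 CPM to 2.42, 1.57 and 1.42 CPM, SAMHD1, which degrades deoxynucleotides, with a log2 fold change of -0.78, and RRM2, a ribonucleotide reductase subunit, with 0.46. In the BCL2 family, 3 of 14 rose and 1 fell (21.4% and 7.14%), against 15.8% and 13.3% of all genes. Without replicate 1 the counts were 7 and 5 of 15 (46.7% and 33.3%), against 32.9% and 32.5%. BCL2 itself, an inhibitor of apoptosis, went from 6.0, 6.74 and 6.73 CPM to 1.47, 2.47 and 2.29 CPM, while the proapoptotic HRK and BMF rose by 1.29 and 1.06 and BCL2L2 by 0.65.

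Wnt pathway genes included some of the largest changes in both directions, with 11 of 31 tested higher and 7 lower, against 15.8% and 13.3% of all genes. Without replicate 1 the counts were 15 and 10 of 32, against 32.9% and 32.5%. Beside TNFRSF19 and DKK1, the receptor FZD6 fell from 13, 13.9 and 12.4 CPM to 0.440, 0.241 and 0.273 CPM. FZD6 lies in the chromosome 8 window from 100 to 110 Mb, whose median was -0.80 with all libraries. The ligand WNT5B rose from 6.26, 5.34 and 5.73 CPM to 132, 81.5 and 85.4 CPM. SFRP1, a secreted antagonist, and WNT7B rose by 1.61 and 1.57. Of 32 TGF-beta and activin genes, 5 rose (15.6%) and 4 fell (12.5%), shares near those of all genes. Without replicate 1, 10 were called in each direction (31.2%), against 32.9% and 32.5%. TGFBR2, the type 2 receptor, rose from 16, 14.3 and 14.7 CPM to 173, 283 and 278 CPM, and NOG, which encodes the BMP antagonist noggin, rose from 0.587, 0.588 and 0.445 CPM to 15.3, 8.14 and 9.45 CPM. BMP2, a ligand, fell with a log2 fold change of -1.91, and SKIL, a repressor of SMAD signaling, fell with a log2 fold change of -1.11.

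Genes of mesenchymal character and matrix also differed. CDH2, which encodes N-cadherin, rose from 12.3, 12.5 and 12.7 CPM to 812, 1197 and 1170 CPM, a log2 fold change of 6.39 (edgeR adjusted p = 3.39e-05). S100A4, a calcium-binding protein, rose from 110, 102 and 110 CPM to 1326, 603 and 607 CPM. TJP3, a tight junction protein, rose by 3.05, whereas SPARC, a matrix glycoprotein, fell from 44, 46.8 and 48.3 CPM to 7.34, 8.51 and 8.14 CPM and CLDN1, a claudin, fell with a log2 fold change of -3.17. Of 19 tested epithelial and mesenchymal markers, 7 rose and 4 fell, against 15.8% and 13.3% of all genes, and without replicate 1 it was 8 in each direction of 20, against 32.9% and 32.5%. Of 21 tested collagens, 10 rose and 3 fell (47.6% and 14.3%), against 15.8% and 13.3% of all genes, with a median of 0.56. Without replicate 1 the counts were 17 and 3 of 22 (77.3% and 13.6%), against 32.9% and 32.5%. COL1A1, of collagen I, rose from 4.17, 4.6 and 3.28 CPM to 19.7, 14.7 and 19.6 CPM, and COL14A1 fell from 23.4, 23.6 and 24.1 CPM to 1.25, 1.57 and 2.19 CPM.

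Markers of fibroblasts rose with these genes. DCN, which encodes decorin, rose from 0.456, 0.428 and 1.0 CPM to 27.4, 22.7 and 24.1 CPM. PDGFRA, a growth factor receptor, rose from 16.8, 15 and 13.5 CPM to 209, 306 and 298 CPM. LUM, which encodes lumican, rose by 2.95. The summed level of all 5 fibroblast markers was 89.6 to 92.4 CPM in the cis libraries and 363 to 442 CPM in cis SSP. PDGFRA and THY1 carried most of it, and in wt, where the sum was 396 to 402 CPM, PDGFRA was at 302 to 309 CPM but DCN at 0.367 to 0.606 CPM and LUM at 0.733 to 1.43 CPM, below every cis SSP library. Leukocyte markers summed to at most 0.913 CPM, and those of endothelial and red blood cells were lower still, so that all 11 leukocyte markers were under 1 CPM in each of the 6 libraries. Of 13 epithelial and Mullerian markers, 11 were under 1 CPM in each library, so that most of the markers that define such epithelium were near zero in both lines. From bulk RNA, more cells of a type and more RNA per cell cannot be told apart, and the part of the fibroblast markers in the other differences was not tested.

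HOX genes encode transcription factors of positional identity along the body axis. Of 15 tested HOX genes, 8 rose, 1 fell and 6 did not pass the test, against 15.8% and 13.3% of all genes, with a median of 0.76, and without replicate 1 the counts were 9 and 3, against 32.9% and 32.5%. The largest rises were in the HOXB cluster, where HOXB9 rose from 5.87, 3.47 and 4.23 CPM to 210, 208 and 209 CPM, HOXB7 from 1.43, 1.44 and 1.28 CPM to 81.9, 37.9 and 39.9 CPM, and HOXB8 from 1.5, 1.18 and 0.556 CPM to 42.8, 28.4 and 27.2 CPM. HOXC6 was lower, at 176, 178 and 180 CPM against 159, 131 and 128 CPM. Only 3 of 22 Mullerian lineage factors were expressed enough to be tested.

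Of 29 tested interferon-stimulated genes, 5 rose (17.2%) and 8 fell (27.6%), against 15.8% and 13.3% of all genes. Without replicate 1, 10 were called higher and 9 lower, against 32.9% and 32.5%. The antiviral genes of one family fell: IFIT1 from 217, 212 and 219 CPM to 16.7, 15.4 and 14.2 CPM, IFIT2 from 43.5, 43.5 and 46.2 CPM to 5.21, 5.19 and 5.52 CPM, and IFIT3 with a log2 fold change of -2.02. IFITM2, a membrane protein that restricts virus entry, rose from 13.2, 13.2 and 11.4 CPM to 71, 47.5 and 48.1 CPM. OASL and STAT2, the latter a component of the interferon-activated factor, rose by 1.94 and 1.04. Of 11 tested NF-kB and inflammatory genes, 0 rose and 5 fell (45.5%) by edgeR with all libraries, against 15.8% and 13.3% of all genes. With all libraries, 0 of the 11 were higher at an unadjusted p of 0.05 or by DESeq2. Without replicate 1, 1 of 11 was called higher and 10 lower (9.09% and 90.9%), against 32.9% and 32.5% of all genes. Under carboplatin, 4 of 12 were called higher (33.3%), near the 34.7% of all genes. The other 8 were lower (66.7%), against 34.5%. PTGS2, the inducible cyclooxygenase, had no count in cis SSP and 71, 73 and 96 counts in cis, and was at least 24.5-fold lower against a floor of 3 counts. BIRC3, an inhibitor of apoptosis induced by NF-kB, fell from 14.9, 15.8 and 17.3 CPM to 4.04, 5.85 and 6.28 CPM. Of 37 autophagy and lysosome genes, 5 rose and 5 fell, 13.5% in each direction and near the shares of all genes. Without replicate 1 the counts were 12 and 15 (32.4% and 40.5%), against 32.9% and 32.5%. CTSD, a lysosomal protease, rose from 38.7, 37.2 and 37.4 CPM to 154, 80.7 and 81 CPM, GRN, which encodes progranulin, rose by 1.07, and NPC1, which exports cholesterol from lysosomes, fell from 111, 111 and 110 CPM to 36.1, 57.3 and 55.7 CPM.

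The nuclear genes of the respiratory chain and the ribosomal protein genes were groups whose medians fell when cis SSP replicate 1 was left out. Of 73 tested nuclear genes of the respiratory chain, 16 rose (21.9%) and 2 fell, against 15.8% and 13.3% of all genes, with a median of 0.69. Without replicate 1, 54 were called higher and 6 lower, against 32.9% and 32.5%, and the median was 0.33. ATP5PB, of the ATP synthase, lies in the stretch near PHGDH. It was at 60.8, 62 and 68.7 CPM in cis and 280, 172 and 168 CPM in cis SSP. NDUFB1, of complex I, was at 30.7, 30.9 and 29.6 CPM against 149, 61.3 and 60.2 CPM. In both, replicate 1 was highest, and the other cis SSP libraries still stood above all cis libraries. CYC1, cytochrome c1, fell from 270, 276 and 288 CPM to 212, 203 and 199 CPM. Of 77 tested ribosomal protein genes, 4 rose (5.19%) and 1 fell (1.3%), against 15.8% and 13.3% of all genes, with a median of 0.47. Without replicate 1 the counts were 43 and 11 (55.8% and 14.3%), against 32.9% and 32.5%, and the median was 0.09. RPS7 rose from 214, 208 and 217 CPM to 732, 419 and 421 CPM, and RPL4, the exception, fell from 1686, 1699 and 1802 CPM to 1525, 1021 and 1018 CPM. The 13 genes of the mitochondrial genome were not called in either direction by edgeR, with or without replicate 1. With all libraries, 1 of them was higher at an unadjusted p of 0.05 and 1 was called higher by DESeq2, and without replicate 1 both numbers were 0.

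Abundant genes whose call hung on that library went both ways. EEF2, the translation elongation factor 2, was at 4735, 4710 and 4640 CPM in cis and at 4397, 4968 and 4948 CPM in cis SSP. COL3A1, of collagen III, was at 3511, 3520 and 3610 CPM against 3176, 3903 and 3870 CPM. HSP90AB1, a cytosolic chaperone, was at 3363, 3351 and 3564 CPM against 3810, 2974 and 2969 CPM. In each of the 3, replicate 1 lay on one side of the cis libraries and replicates 2 and 3 on the other. None of them passed the test with all libraries, and without replicate 1 EEF2 and COL3A1 were called higher and HSP90AB1 lower.

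The lines were also compared under carboplatin, where none of the libraries was that replicate 1. Of 13882 genes tested there, 9610 were called (69.2%), 4818 higher in cis SSP (34.7%) and 4792 lower (34.5%). Of the 3990 genes called in complete medium, 3906 were tested, and 3652 were called in the same direction, 15 in the opposite direction and 239 not at all. Across 13504 genes tested in both, which are not independent replicates and were measured in other libraries of the same lines, the log2 fold changes had a Pearson correlation of 0.931. PHGDH was at 131, 124 and 131 CPM in cis and 184, 189 and 185 CPM in cis SSP under carboplatin, a log2 fold change of 0.55. The median of the 71 genes around it was 0.94 there, with 65 called higher, where 34.7% of all genes were called higher.

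Some groups with more falls than rises in complete medium had negative medians under carboplatin too. The medians were -0.80 for cholesterol synthesis, with 22 of 25 tested members lower where 34.5% of all genes were lower, -0.35 for the tRNA synthetases, with 16 of 20 lower, and -0.31 for the ATF4 genes, with 21 of 33 lower. Glycolysis and hypoxia genes had medians of 0.03 and 0.18 there. Genes of mitosis and G2/M were called in nearly equal numbers, 12 higher (37.5%) and 13 lower (40.6%), near the 34.7% and 34.5% of all genes. The p53 targets had a median of 0.3, with 17 of 29 higher (58.6%) and 5 lower (17.2%), against 34.7% and 34.5% of all genes. Without carboplatin their median was -0.18, with 3 higher and 7 lower, against 15.8% and 13.3% of all genes. The difference with and without carboplatin was not tested. FAS, which fell with a log2 fold change of -1.05 in complete medium, had a log2 fold change of -0.10 under carboplatin and was not called there. GLDC, which fell with a log2 fold change of -1.21 in complete medium, had -0.31.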

How the data were processed

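RNA-seq was analysed for 6 libraries, 3 of A2780 cis and 3 of A2780 cis SSP in complete medium. A second comparison used 6 libraries of the same lines under carboplatin. Levels in wt came from 3 libraries of A2780 wt in complete medium without carboplatin. The authors deposited raw counts per gene, whole numbers made by aligning reads with STAR and counting with HTSeq on GRCh37.p13 (hg19) with GENCODE v19 genes, and the strand setting of the counting is not given in the sources used here. Symbols, positions and exonic lengths came from GENCODE v44lift37. The 3 rows that name no gene, 4.95% to 7.0% of reads in the 6 libraries, were left out. Overlapping or near-identical genes, such as SLC1A5, DKK1, STARD4, DDIT3, ADGRF4, GSTM2, IFIT2 and IFITM2, may share reads and are uncertain to that extent.

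Genes were tested with edgeR 4.0.16 (filterByExpr, TMM, robust glmQLFit and glmQLFTest) in R 4.3.3, with Benjamini-Hochberg adjustment over all genes tested and a threshold of 0.05. Only the 2 groups compared entered a fit. CPM used TMM factors over all 36 libraries. Scripts were tested on simulated data. No pair of libraries agreed so closely that it was counted as 1. Figures were drawn with matplotlib 3.10.9, and intervals are exact and cover counting error only. The number of counts, 14455766 to 18768404 per library, sets the precision of low genes.

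Alternatives were DESeq2 1.42.0 (Wald test and size factors), total counts, other filters, protein-coding genes, an offset for exonic length, voom quality weights in limma 3.58.1, a fit over 36 libraries and leaving out each library. The DESeq2 test without cis SSP replicate 1 was chosen after seeing the data.

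The members and lists were chosen with earlier results of these data known. Named genes were PHGDH, PSAT1, PSPH, SLC1A4, SLC1A5, ATF4 and PARP1, the 12 with the largest change in each direction called with and without replicate 1, averaging at least 50 counts, with groups that do not overlap, up to 3 called members per direction and 2 not called in each of 35 lists, up to 8 genes per direction with at most 3 counts in 1 group, up to 3 genes a window, and 4 abundant genes whose call depends on replicate 1. Other genes are marked in the text. Results of some genes are not reported here.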

Additional observations from a re-analysis of the deposited data

Results flagged for a closer look

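CDKN1A, which encodes the cell cycle inhibitor p21, stood out because every cis SSP library was below every cis library in complete medium and above every cis library under carboplatin. The log2 fold change of cis SSP over cis was -0.63 in complete medium and 0.25 under carboplatin. In CPM, complete medium gave 90.2, 91.7 and 91.5 in cis against 67.3, 57.1 and 55 in cis SSP, and carboplatin gave 319, 324 and 321 against 380, 384 and 369. The difference with and without carboplatin was not tested, and among the named genes no other met this description.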

How the results depend on the processing

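The 3990 genes called became 7979 in a fit over 36 libraries, 9156 with voom quality weights, 9335 with the length trend removed and without cis SSP replicate 1, 7225 with DESeq2 without that replicate (chosen after seeing the data), and 1797 with a log2 fold change of at least 1. Leaving out 1 library gave 1995 to 9262 calls in complete medium and 9132 to 9564 under carboplatin, with 2064, 1995 and 2048 calls without cis replicate 1, 2 or 3. Within 1.5 times of the main count stayed DESeq2 (4551), DESeq2 size factors (3991), a minimum of 10 counts in every library (3287), no filter (3925), protein-coding genes (3502), total counts (3953) and the length trend removed (4936). Total counts gave 2322 higher and 1631 lower. PARP1 reversed to -0.001253 with DESeq2 and spanned -0.01486 to 0.06984 when 1 library was left out, the ends being without cis SSP replicate 2 and 1. EEF2 reversed to -0.01373 with DESeq2, -0.001177 with the length trend removed, and -0.005167 without a filter, and spanned -0.04175 (without cis SSP replicate 2) to 0.09153 (without replicate 1). COL3A1 spanned -0.043 to 0.1449 without those replicates. None of these 3 genes was called with all libraries, and the cause was not tested. Of 194 named genes called, 12 lost the call with the length trend removed, 18 without a filter and 4 with DESeq2, and 0 without cis SSP replicate 1. No paired analysis was possible because the labels give no replicate numbers. With 3 libraries a group, genes of few counts have wide errors, and the spread of independent cultures was not measured.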
